A study of Bos taurus with 23 samples.

Results

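ESR1 (ENSBTAG00000007159), which encodes oestrogen receptor alpha, and PTGS2 (ENSBTAG00000014127), which encodes prostaglandin synthase 2, are 2 of the 18897 genes in a table of read counts from bovine endometrium. They were chosen by their Ensembl identifiers, for their place in the control of luteolysis, and both passed the filter on low counts. The tissue was mid-luteal intercaruncular endometrium, which is the uterine lining that carries glands and lies between the caruncles. Explants were held in culture for 1 to 5 h and then treated for 6 h in 1 of 4 ways. Control explants had RPMI medium alone (n = 6). IFNT explants had medium with 100 ng per mL of ovine interferon tau, a recombinant protein (n = 6). AI explants shared the well with a Day 15 conceptus grown from a blastocyst produced in vivo (n = 4), and IVF explants with a Day 15 conceptus grown from a blastocyst produced in vitro (n = 7). The AI conceptuses comprised 3 females and 1 male, and the IVF conceptuses 2 females and 5 males. The titles give 1 further code to all 4 AI conceptuses and 5 codes to the 7 IVF conceptuses, and the labels do not explain it. If the code marks a shared source, n is smaller, above all for AI. Each title also carries a number after the letter U, written here as a uterus, and 7 such numbers occur. No strain, age or parity of the cows is used here, and the defining markers of endometrial cells were not checked, because the other identifiers of the table were not paired with gene symbols here.

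ESR1 is the nuclear receptor through which oestradiol acts on the uterus. In the cycle of sheep, the return of ESR1 late in the luteal phase precedes a rise of the oxytocin receptor. Oxytocin then drives pulses of prostaglandin F2 alpha that end the life of the corpus luteum. PTGS2, also called COX-2, is the inducible enzyme that converts arachidonic acid to prostaglandin H2, the precursor of prostaglandin F2 alpha and prostaglandin E2. Interferon tau, the type I interferon secreted by the ruminant conceptus, is known for keeping the oxytocin receptor low and so preventing these pulses, and in sheep it also keeps ESR1 low.

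The libraries held between 19461678 and 36730378 counts. ESR1 had between 572 and 1726 reads in a library and PTGS2 between 1209 and 12557, so the spread between explants, not the number of reads, limited both genes. Levels are given as CPM, the count of a gene relative to the TMM-scaled library total. They are compared between samples for 1 gene, not between the 2 genes, since CPM is not corrected for gene length. Differences were tested with edgeR's quasi-likelihood test over all genes, and a gene was called at a Benjamini-Hochberg adjusted p under 0.05. In bulk tissue, fewer cells that express a gene and less of its RNA per cell cannot be told apart. Markers of conceptus tissue were not checked either, so any carry-over of it into the AI and IVF explants was not tested. PTGS2 was itself on the list of such markers, as a gene shared with endometrium. In the deposited table the conceptus libraries are numbered apart from the Control and IFNT libraries, and if these numbers followed a batch it cannot be told apart from the conceptus. ESR1 and PTGS2 passed the threshold in none of the 11 comparisons between groups in this test, and fits with other settings, given beside the results, called only ESR1 between conceptus and IFNT.

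ESR1 was expressed in every explant, between 20.4 and 61.4 CPM. In Control explants it was lowest at 22.2 CPM in uterus 3, had a median of 38.2 CPM and was highest at 60.4 CPM in uterus 2. With IFNT it ran from 30.6 CPM in uterus 1 through a median of 43.2 CPM to 61.4 CPM in uterus 2. The AI explants of uteri 1, 2, 3 and 4 held 20.4, 41.8, 29.3 and 37.6 CPM. The groups overlapped, and the range of the IFNT explants did not lie below that of the Control explants. The IVF explants ran from 21.8 CPM in uterus 10 through a median of 34.2 CPM to 49.6 CPM in uterus 5. The IFNT group had the highest mean, 45.3 CPM ± 10.3 (SD, n = 6), followed by the Control mean of 38.6 CPM ± 12.5 (SD, n = 6). The IVF mean of 34.1 CPM ± 9.76 (SD, n = 7) and the AI mean of 32.3 CPM ± 9.47 (SD, n = 4) came next. Neighbours in this order differed by less than the spread within groups.

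PTGS2 varied more, between 46.0 and 403 CPM. In Control explants it ran from 72.0 CPM in uterus 10 through a median of 152 CPM to 248 CPM in uterus 1. With IFNT it was between 50.2 CPM in uterus 5 and 117 CPM in uterus 1, with a median of 82.0 CPM. The 3 Control explants of uteri 1, 2 and 3, at 248, 217 and 200 CPM, lay above every IFNT explant, while those of uteri 4, 5 and 10, at 104, 76.8 and 72.0 CPM, lay among them. The AI explants of uteri 1, 2, 3 and 4 held 403, 111, 109 and 101 CPM, so that 1 explant stood far above 3 close values. The IVF explants ran from 46.0 CPM in uterus 10 through a median of 150 CPM to 291 CPM in uterus 4. The AI group had the highest mean, 181 CPM ± 148 (SD, n = 4), and the IFNT group the lowest, 85.7 CPM ± 24.9 (SD, n = 6). Between them were the Control mean of 153 CPM ± 77.7 (SD, n = 6) and the IVF mean of 146 CPM ± 84.1 (SD, n = 7). By medians the AI group, at 110 CPM, was below Control and IVF.

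**Figure D1:**
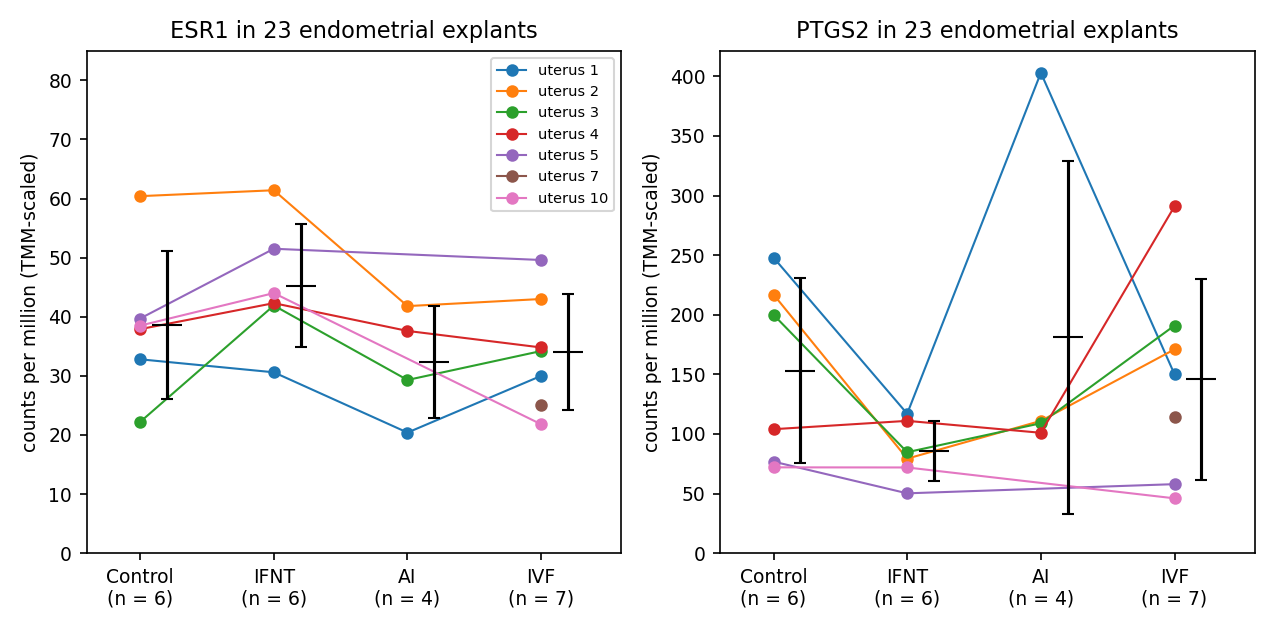
Level of ESR1 (left) and PTGS2 (right) in CPM in the 23 explants by treatment, with explants of the same uterus joined by a line and the group mean ± SD in black beside the points. ESR1 stays between 20.4 and 61.4 CPM with overlapping groups, and PTGS2 is within 50.2 to 117 CPM in all 6 IFNT explants but reaches 403 CPM in the AI explant of uterus 1.

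Interferon tau without a conceptus was compared with medium first. Of the 15227 genes tested, 3.21% were called between IFNT and Control, and neither ESR1 nor PTGS2 was among them. ESR1 had a log2 fold change of 0.23 ± 0.23 (SE, adjusted p = 0.986 by edgeR). Its 95% interval, from 0.846-fold to 1.63-fold, excluded a 2-fold change in either direction. The value ranged with the Control explants, from 0.12 without Control 3 to 0.41 without Control 2. In explants of the same uterus, ESR1 was higher with IFNT than with medium in 5 of 6 uteri. The mean log2 difference was 0.26 ± 0.36 (SD, n = 6, exact sign-flip p = 0.0938, adjusted p = 0.374 over 12 such tests). The difference was 0.92 in uterus 3 and at most 0.38 in the others. Without that uterus the mean difference was 0.13.

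PTGS2 had the larger difference in this comparison. Its log2 fold change was -0.84 ± 0.43 (SE, adjusted p = 0.643 by edgeR), with a 95% interval from 0.302-fold to 1.04-fold. That interval includes 1-fold, which is no difference, as well as differences of more than 2-fold. With the uterus as a term the value was -0.72 ± 0.32 (SE, adjusted p = 0.265 by edgeR), and the interval, from 0.383-fold to 0.967-fold, lay below 1-fold. The gene was called in neither model. Within uteri the difference was -0.71 ± 0.66 on the log2 scale (SD, n = 6, exact sign-flip p = 0.0938, adjusted p = 0.374). It was -1.09, -1.45 and -1.24 in uteri 1, 2 and 3 and -0.61 in uterus 5. It was 0.11 in uterus 4, and in uterus 10 the explants held 72.0 CPM with medium and 71.9 CPM with IFNT. The uteri whose Control explant had the most PTGS2 were therefore those with the largest difference, and a Control value enters both quantities.

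The next comparisons asked what a conceptus did. Against Control, 3.15% of genes were called with AI, 3.37% with IVF and 4.32% with the average of both, and ESR1 and PTGS2 were not among them. ESR1 had a log2 fold change of -0.26 ± 0.26 for AI (SE, adjusted p = 0.793 by edgeR) and -0.18 ± 0.22 for IVF (SE, adjusted p = 0.882 by edgeR). The 95% intervals ran from 0.579-fold to 1.21-fold with AI and from 0.644-fold to 1.21-fold with IVF, and both excluded a 2-fold change. These values varied with single explants. Without Control 2 they were -0.08 for AI and -0.01 for IVF, and without AI 1, the AI explant of uterus 1, the AI value was -0.09. Other fits moved them the other way, to -0.38 for AI and -0.30 for IVF without Control 3, and to -0.42 for AI without AI 2. Neither value changed sign in any fit without 1 library or uterus. Within uteri ESR1 was lower with AI in 3 of 4 uteri and with IVF in 4 of 6. Uterus 3, where the Control explant had the lowest ESR1 of its group, was above Control in both, by 0.40 with AI and 0.62 with IVF on the log2 scale.

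Against Control, the log2 fold change of PTGS2 was 0.24 ± 0.48 for AI (SE, adjusted p = 0.923 by edgeR) and -0.07 ± 0.41 for IVF (SE, adjusted p = 0.984 by edgeR). The intervals were wide, from 0.597-fold to 2.35-fold with AI and from 0.528-fold to 1.73-fold with IVF. The AI value rested on 1 explant: without AI 1 it was -0.53 ± 0.47 (SE, adjusted p = 0.75 by edgeR), and with the block it was -0.23 ± 0.37 (SE, adjusted p = 0.753 by edgeR). The IVF value turned to between 0.03 and 0.13 without Control 1, 2 or 3 or IVF 5 or 10. Within uteri PTGS2 was lower with AI than with medium in 3 of 4 uteri, by 0.97, 0.88 and 0.04 in uteri 2, 3 and 4, and higher by 0.70 in uterus 1. With IVF it was lower in 5 of 6 uteri, by between 0.06 and 0.73, and higher by 1.49 in uterus 4. The mean differences of -0.30 ± 0.79 (SD, n = 4, exact sign-flip p = 0.375, adjusted p = 0.5) and -0.12 ± 0.82 (SD, n = 6, exact sign-flip p = 0.812, adjusted p = 0.812) were smaller than their spread.

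**Figure D2:**
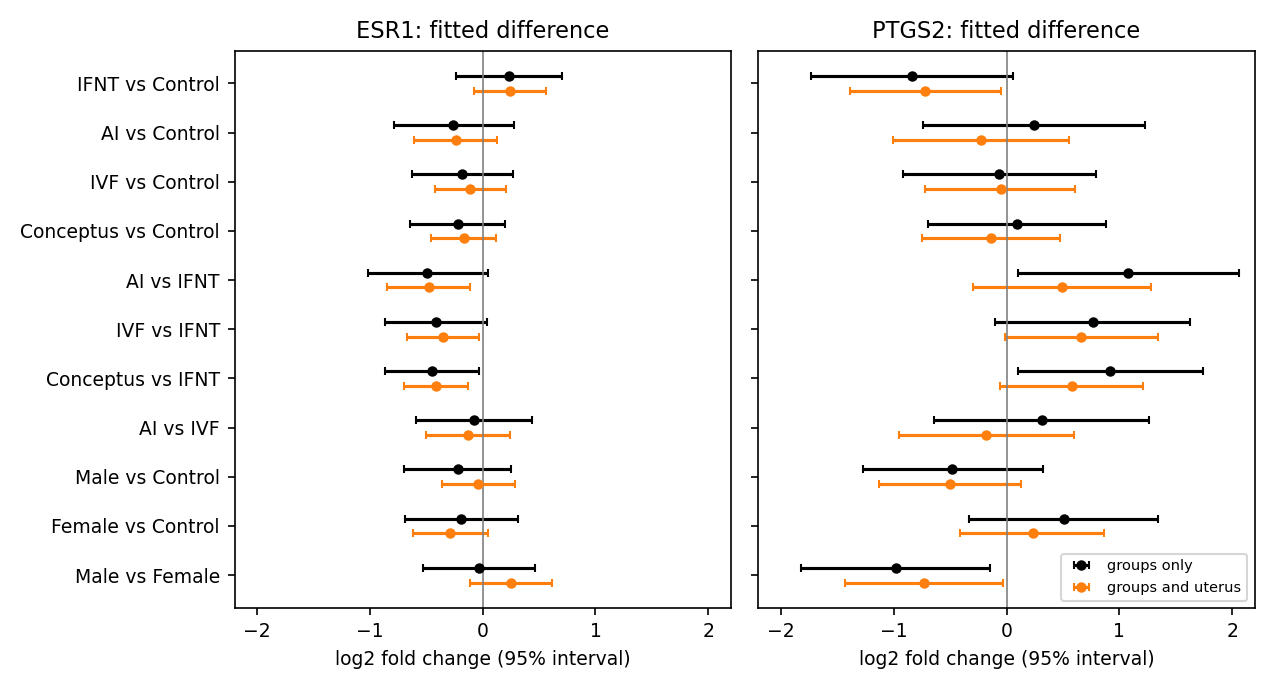
Fitted log2 fold change of ESR1 (left) and PTGS2 (right) with its 95% interval in 11 comparisons, from the model with the groups alone (black) and from the model with the uterus as a further term (orange). The intervals of ESR1 are narrower than those of PTGS2, and those of the averaged conceptus against IFNT lie below 0 for ESR1 in both models.

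Conceptus explants were also compared directly with IFNT explants. The conceptus wells had no added interferon tau, and the amount each conceptus secreted is not given in the labels. A different dose of interferon tau and other effects of a conceptus therefore cannot be told apart. In the model with the groups alone, both genes had their lowest adjusted p here. With the uterus as a term, that of PTGS2 was about the same here and for IFNT against Control. Without that term, 0 genes were called by edgeR, or 0% of those tested, for AI, for IVF and for their average. At an unadjusted p under 0.05 there were 1495, 866 and 1524 genes, and DESeq2 called 36, 8 and 107. ESR1 was lower with the averaged conceptus than with IFNT, at a log2 fold change of -0.45 ± 0.20 (SE, adjusted p = 0.455 by edgeR), or 0.732-fold with a 95% interval from 0.549-fold to 0.977-fold. PTGS2 was higher, at 0.92 ± 0.40 (SE, adjusted p = 0.434 by edgeR), or 1.90-fold with an interval from 1.08-fold to 3.34-fold. By p-value ESR1 ranked 1188 and PTGS2 1008 among the 15227 genes. The 2 genes thus had opposite signs and neither passed the adjusted threshold.

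The ESR1 difference had the same sign in every pair of explants. Within uteri ESR1 was lower with AI than with IFNT by 0.58, 0.55, 0.51 and 0.17 on the log2 scale in uteri 1, 2, 3 and 4, a mean of -0.46 ± 0.19 (SD, n = 4, exact sign-flip p = 0.125, the smallest that 4 uteri allow, adjusted p = 0.374). With IVF it was lower in 6 of 6 uteri, by 1.01 in uterus 10, by 0.51 in uterus 2 and by between 0.03 and 0.29 in the other 4. The mean was -0.36 ± 0.36 (SD, n = 6, exact sign-flip p = 0.0312, the smallest that 6 uteri allow, adjusted p = 0.374). In uteri 1 and 5 the IVF and IFNT explants differed by no more than 0.05. ESR1 was therefore lower in all 10 pairs, of which the AI and IVF pairs of uteri 1, 2, 3 and 4 share their IFNT explant, and 1.12% of the genes tested were lower in all 10. That was 171 genes, while 301 genes were higher in all 10.

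A block for the uterus raised the number of genes called by edgeR for conceptus against IFNT to 990, or 6.5% of those tested, and ESR1 stayed short of the threshold, at -0.41 ± 0.14 (SE, adjusted p = 0.08 by edgeR). DESeq2 with the same block called it, at -0.42 ± 0.14 (SE, adjusted p = 0.0328 by DESeq2), among 1656 genes, or 11.3% of the 14618 it gave an adjusted p. That call was lost in 9 of the 17 fits that left out 1 library, namely IFNT 2, 3, 4 or 10, AI 1 or 2, or IVF 2, 4 or 10, with adjusted p up to 0.136. It was also lost in 5 of the 7 fits that left out a uterus, namely 1, 2, 3, 4 or 10, with adjusted p up to 0.104. In edgeR with the block, ESR1 passed without IVF 5 (adjusted p = 0.0436 by edgeR). Taken separately with the block, ESR1 had log2 fold changes against IFNT of -0.48 ± 0.18 for AI (SE, adjusted p = 0.11 by edgeR) and -0.35 ± 0.15 for IVF (SE, adjusted p = 0.315 by edgeR).

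PTGS2 was higher with a conceptus than with IFNT in 8 of the same 10 pairs, and the share of all genes with such a count was not computed. The log2 difference between AI and IFNT was 1.79, 0.48, 0.36 and -0.14 in uteri 1, 2, 3 and 4. With IVF it was 0.36, 1.11, 1.17, 1.38 and 0.21 in uteri 1 to 5 and -0.64 in uterus 10. The means were 0.62 ± 0.82 with AI (SD, n = 4, exact sign-flip p = 0.25, adjusted p = 0.5) and 0.60 ± 0.77 with IVF (SD, n = 6, exact sign-flip p = 0.156, adjusted p = 0.374). The fitted value against IFNT was 1.08 ± 0.47 for AI (SE, adjusted p = 0.468 by edgeR) and 0.77 ± 0.42 for IVF (SE, adjusted p = 0.903 by edgeR). For AI it was 0.32 ± 0.46 without AI 1 (SE, adjusted p = 0.877 by edgeR) and 0.49 ± 0.37 in the blocked fit (SE, adjusted p = 0.461 by edgeR). For the average it was 0.54 ± 0.35 without AI 1 (SE, adjusted p = 0.691 by edgeR) and 0.58 ± 0.30 with the block (SE, adjusted p = 0.269 by edgeR). The interval of the average with the block, from 0.96-fold to 2.31-fold, included 1-fold. AI 1 thus set a large part of the PTGS2 difference for AI and for the average. The IVF value was 0.86 without uterus 1, and between 0.51 and 0.91 over all fits without 1 library or uterus.

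**Figure D3:**
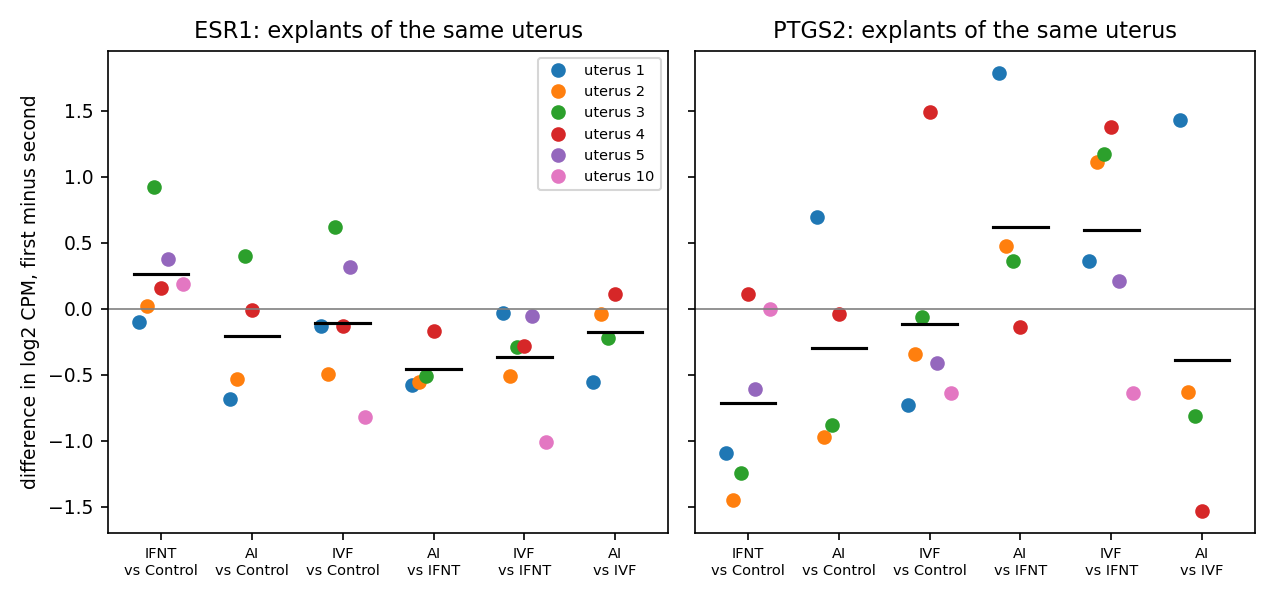
Difference in log2 CPM between 2 explants of the same uterus for ESR1 (left) and PTGS2 (right), the first named group minus the second, with 1 point per uterus and the mean as a black bar. All 10 points of ESR1 for AI or IVF against IFNT lie below 0, and PTGS2 ranges from -1.53 to 1.79.

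Conceptus origin was compared directly. All 4 AI conceptuses carry 1 code that no IVF conceptus carries, so origin and whatever the code marks cannot be told apart. edgeR called 0 genes between AI and IVF, or 0% of those tested, with 343 at an unadjusted p under 0.05, and DESeq2 also called 0. With the uterus block edgeR called 0 and DESeq2 101. ESR1 had a log2 fold change of -0.08 ± 0.25 (SE, adjusted p = 1 by edgeR), with an interval from 0.664-fold to 1.35-fold, and it turned to 0.11 without AI 1 and to 0.04 without IVF 5. PTGS2 had one of 0.31 ± 0.46 (SE, adjusted p = 1 by edgeR), with an interval from 0.640-fold to 2.40-fold. With the block it turned to -0.18 ± 0.37 (SE, adjusted p = 0.952 by edgeR), with an interval from 0.516-fold to 1.52-fold, and without AI 1 to -0.44. The 4 uteri that held both kinds of conceptus differed among themselves: PTGS2 in the AI explant was above that in the IVF explant by 1.43 in uterus 1 and below it by 0.63, 0.81 and 1.53 in uteri 2, 3 and 4. For PTGS2 the direction between the origins was therefore not settled. A 2-fold higher level with AI lay inside the interval without the block and outside the one with it. A 2-fold lower level lay outside both, but only just outside the one with the block.

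Grouped by the sex of the conceptus, PTGS2 averaged 217 CPM ± 128 (SD, n = 5) in explants cultured with a female and 110 CPM ± 54.8 (SD, n = 6) in those cultured with a male. The female values ran from 109 to 403 CPM and the male values from 46.0 to 191 CPM, so the groups overlapped. The log2 fold change of male against female was -0.98 ± 0.40 (SE, adjusted p = 0.659 by edgeR), and PTGS2 ranked 534 among the 15099 genes by its p-value. Without AI 1, a female, it was -0.65 ± 0.40 (SE, adjusted p = 0.704 by edgeR). Over all fits without 1 library or uterus it ran from -1.39 to -0.65. With the block it was -0.73 ± 0.33 (SE, adjusted p = 0.415 by edgeR), with an interval from 0.372-fold to 0.979-fold. edgeR called 0 genes, or 0%, with 1089 at an unadjusted p under 0.05, and DESeq2 called 0. With the uterus block edgeR called 0 and DESeq2 46. Uteri 5, 7 and 10 held males only. In the 3 uteri with an explant of each sex, PTGS2 was 403 CPM with the female and 150 CPM with the male in uterus 1, 109 and 191 CPM in uterus 3, and 291 and 101 CPM in uterus 4. The sexes thus differed in both directions within uteri, and 3 pairs allow no p under 0.25. Origin and sex also crossed in these pairs, since the females were AI in uteri 1 and 3 and IVF in uterus 4.

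ESR1 was at 33.9 CPM ± 9.34 (SD, n = 5) with females and 33.1 CPM ± 9.98 (SD, n = 6) with males, a log2 fold change of -0.03 ± 0.24 (SE, adjusted p = 0.979 by edgeR) with an interval from 0.692-fold to 1.38-fold. With the block it turned to 0.25 ± 0.17 (SE, adjusted p = 0.552 by edgeR), and without AI 2 or IVF 2, 7 or 10 to between 0.02 and 0.07. In the pairs it was lower with the female, at 20.4 against 30.0 CPM in uterus 1, 29.3 against 34.2 CPM in uterus 3 and 34.8 against 37.6 CPM in uterus 4. Against Control, 3.4% of genes were called with males and 3.61% with females. ESR1 had log2 fold changes of -0.22 ± 0.23 (SE, adjusted p = 0.753 by edgeR) and -0.19 ± 0.24 (SE, adjusted p = 0.817 by edgeR) there, and PTGS2 of -0.48 ± 0.39 (SE, adjusted p = 0.664 by edgeR) and 0.51 ± 0.40 (SE, adjusted p = 0.663 by edgeR). The female value of PTGS2 was 0.15 ± 0.40 without AI 1 (SE, adjusted p = 0.922 by edgeR) and 0.23 ± 0.30 with the block (SE, adjusted p = 0.69 by edgeR). For males without IVF 10 it was -0.31, and ESR1 with males was -0.04 with the block. No difference between the sexes was thus shown for either gene.

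Conceptus length ran from 8 to 54 mm. The slope on log2 length over the 11 conceptus explants was -0.16 ± 0.16 per doubling for ESR1 (SE, adjusted p = 1 by edgeR) and -0.18 ± 0.38 for PTGS2 (SE, adjusted p = 1 by edgeR). The slope of PTGS2 was -0.46 ± 0.29 without AI 1 (SE, adjusted p = 1 by edgeR), -0.07 without IVF 5 and 0.02 ± 0.45 with the block (SE, adjusted p = 1 by edgeR). That of ESR1 was -0.27 ± 0.14 without IVF 5 (SE, adjusted p = 0.871 by edgeR). No gene of the 15311 tested was called by edgeR, which is 0%, and 301 had an unadjusted p under 0.05. The explant with the longest conceptus, 54 mm in uterus 7, held 25.0 CPM of ESR1 and 114 CPM of PTGS2, inside the range of the others.

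**Figure D4:**
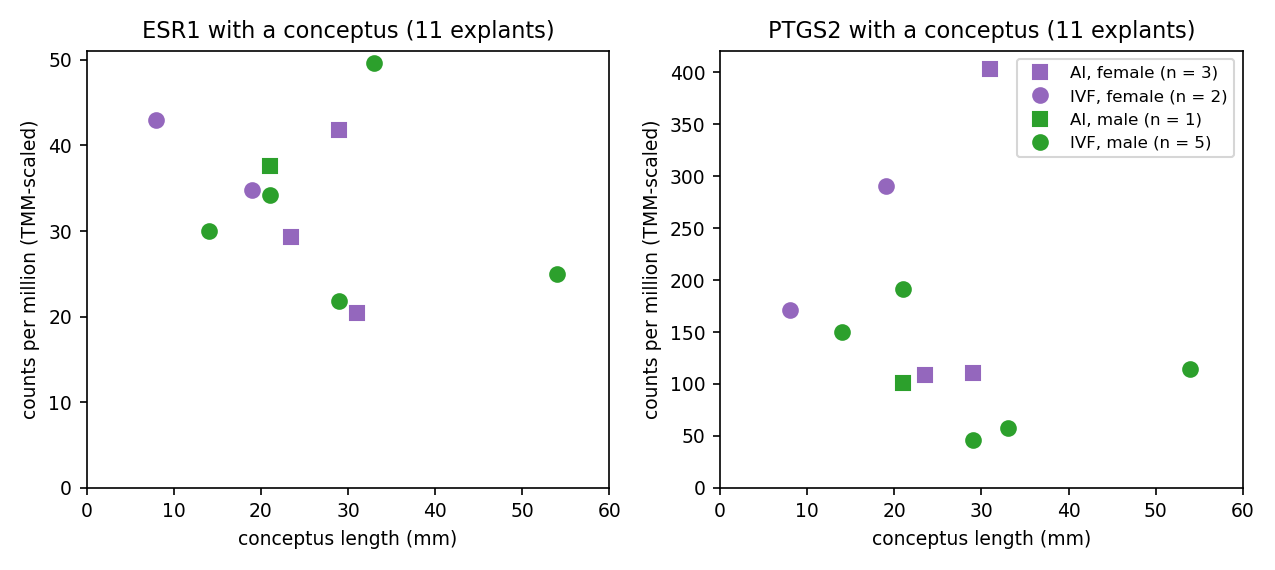
Level of ESR1 (left) and PTGS2 (right) in CPM against conceptus length in mm in the 11 conceptus explants, with squares for AI, circles for IVF, purple for females and green for males. The highest PTGS2 values, 403 and 291 CPM, are from explants cultured with a female, and the other 3 female values lie among those of the males.

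The uterus took up a larger uncorrected share of the variance of both genes than treatment did. It took up 58.9% of the variance of log2 CPM of ESR1 and 56.7% of that of PTGS2, where the median gene had 50.9%. Treatment took up 20.1% and 15.7%, where the median gene had 11.9%. ESR1 was at percentile 63.8 of genes for uterus and 71.8 for treatment, and PTGS2 at percentiles 60.2 and 61.8, so both lay in the middle of the range of all genes. The biological coefficient of variation within groups was 28.3% for ESR1, close to the median of 27.9% over genes, and 50.9% for PTGS2, which exceeded that of 85.4% of genes. With the uterus in the model these were 19.0% and 37.2%.

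Uterus 2 was highest in ESR1, at 51.7 CPM ± 10.7 (SD, n = 4) over its explants, and uterus 5 followed with 47.0 CPM ± 6.36 (SD, n = 3). Uterus 1 was at 28.5 CPM ± 5.49 (SD, n = 4). PTGS2 ran the other way for uteri 1 and 5, with 230 CPM ± 129 (SD, n = 4) in uterus 1 and 61.6 CPM ± 13.7 (SD, n = 3) in uterus 5. The mean of uterus 1 includes AI 1 at 403 CPM. Uterus 2 held 144 CPM ± 61.5 of PTGS2 (SD, n = 4). Uterus 10 was low in PTGS2 in all its explants, at 63.3 CPM ± 15.0 (SD, n = 3), and its ESR1 of 34.7 CPM ± 11.6 (SD, n = 3) lay between those of uteri 1 and 5. These uteri hold different sets of treatments, and uteri 5, 7 and 10 hold no AI explant.

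**Figure D5:**
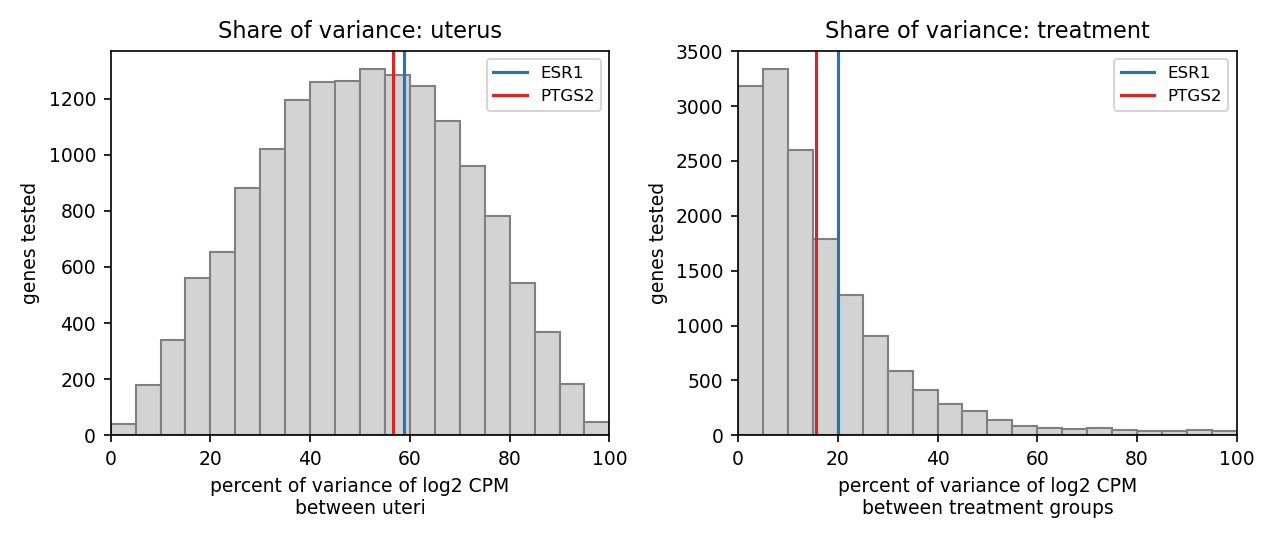
Number of genes by the percent of the variance of log2 CPM that lies between uteri (left) and between treatment groups (right), over the 15227 genes tested, with ESR1 as a blue line and PTGS2 as a red line. Both lines fall in the body of each distribution, at 58.9% and 56.7% for uterus and at 20.1% and 15.7% for treatment.

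The relation of the 2 genes across uteri was read within groups, where each explant comes from a different uterus. Pearson's r was -0.13 in Control (n = 6, exact permutation p = 0.776), -0.64 with IFNT (n = 6, exact permutation p = 0.162) and 0.22 with IVF (n = 7, exact permutation p = 0.631). Spearman's rho was -0.26 (exact permutation p = 0.658), -0.77 (exact permutation p = 0.103) and 0.36 (exact permutation p = 0.444). The smallest adjusted p over the 3 relations was 0.486 for r and 0.309 for rho. Without the 2 explants farthest from the median of ESR1, r was -0.97, -0.89 and 0.57, over 4, 4 and 5 explants. No relation between ESR1 and PTGS2 was therefore shown at this number of uteri, and its sign was not the same in the groups.

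No relation of either gene to the size of the interferon response of its uterus was detected. Genes raised by IFNT were called without a uterus and their mean change read in that uterus, where it was between 1.38 and 2.67 on the log2 scale with IFNT over 351 to 452 genes. Across the 6 uteri, the change in PTGS2 with IFNT had r = 0.13 (exact permutation p = 0.801) and rho = 0.14 (exact permutation p = 0.803) with this response, and r was -0.93 without the 2 uteri farthest from its median. The change in ESR1 with IFNT had r = 0.25 (n = 6, exact permutation p = 0.654) and rho = -0.09 (exact permutation p = 0.919), and r was 0.18 without the 2 farthest. For IVF the response of the same genes was read in the IVF explant, where it was between 1.5 and 2.24. With IVF the values of r were 0.06 for ESR1 and 0.05 for PTGS2 (n = 6, exact permutation p = 0.9 and 0.889), with rho of 0.38 and 0.14 (exact permutation p = 0.467 and 0.778). Without the 2 farthest uteri these r were 0.97 and 0.08. The adjusted p was at least 0.9 in all 4 relations. The response and the change of a gene subtract the same Control explant, which the permutation does not allow for. In uteri 4 and 10 the response was 2.30 and 2.15 and PTGS2 with IFNT was within 0.11 of Control. In uterus 2, with the smallest response of 1.38, PTGS2 was lower by 1.45. Uteri 1 and 3 had the largest responses, 2.67 and 2.6, with PTGS2 differences of -1.09 and -1.24. In uterus 5 the response was 1.73 and the PTGS2 difference -0.61.

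The genes whose log2 CPM most resembled that of each member over all 23 libraries are given by identifier. ENSBTAG00000020119, between 3.12 and 17.6 CPM, had r = 0.91 with ESR1, and ENSBTAG00000018509, between 0.546 and 3.43 CPM, had r = 0.89. For PTGS2 they were ENSBTAG00000013480, between 12.1 and 27.1 CPM, with r = 0.83, and ENSBTAG00000006589, between 4.22 and 43.6 CPM, with r = 0.82. Of 15226 other genes, 87 had an r over 0.8 with ESR1 and 6 with PTGS2. ESR1 and PTGS2 had r = -0.33 with each other. These 23 libraries share uteri and treatments, so the values describe likeness only.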

How the data were processed

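Messenger RNA of 23 explants was sequenced with a stranded TruSeq kit, per the labels' protocols. HISAT2, StringTie, edgeR and build UMD3.1 are named, without versions or roles, in the submitters' processing notes. How reads were counted (tool, annotation release, strand) is not given in the sources used here, so reads of overlapping genes can be shared. The values the authors deposited are raw read counts per gene. Columns were matched to samples by the description field. No pair of libraries agreed within sampling noise (lowest chi-square per degree of freedom 21.3 over 253 pairs).

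Testing used edgeR 4.0.16 under R 4.3.3 (filterByExpr, TMM, quasi-likelihood F test on all 23 libraries, 15227 genes by origin and 15099 by sex) and, as an alternative, DESeq2 1.42.0. The conceptus average weights AI and IVF equally. SE is the log2 fold change divided by the root of F, and 95% intervals are not adjusted for the number of genes. Log2 CPM uses a prior count of 2. The edgeR fit without a uterus term was tested on simulated counts for IFNT against Control.

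The labels do not spell out the U number. Deviations from group means correlated in all 30 pairs with the same number (0.15 to 0.71, median 0.51, against a median of -0.11 between numbers), so the numbers pair the explants. The model fixed for the comparisons has no uterus term, and the fit with it is given where it changes a result. The p-values without it treat explants of 1 uterus as independent.

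The reference table (ARS-UCD2.0) paired 0 identifiers with symbols, so the pathway and marker lists and the rule for genes with symbols could not be applied. ESR1 and PTGS2 are named by their identifiers, and the rule for others was the 2 identifiers of highest r with each. The members and lists were chosen with earlier results of these data known. The relation to the interferon response, the pairs by sex and the count of genes lower in all pairs were added after the values were seen.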

Additional observations from a re-analysis of the deposited data

Results flagged for a closer look

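Of 24 groups of values examined, 3 had a lowest or highest value far from the rest, where chance gives about 1 in 20. The groups share explants and are not independent, so this count was not tested against chance. PTGS2 in the AI explant of uterus 1, at 403 CPM, stood above the other 3 AI explants, with the gap taking up 0.97 of the whole range. The difference in log2 CPM of PTGS2 between the IVF and Control explants of uterus 4, at 1.49, stood above those of the other 5 uteri, with the gap at 0.70 of the range. The difference in ESR1 between the AI and IFNT explants of uterus 4, at -0.169, was nearer to 0 than in the other 3 uteri, with the gap at 0.83 of the range.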

How the results depend on the processing

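The log2 fold changes of ESR1 and PTGS2 in 11 comparisons, their slopes on length and their within-uterus differences were recomputed with median-ratio size factors, without the filter on low counts, with DESeq2, from the compared groups alone, with the uterus as a replicate block, with another prior count or scale of length, and without each library or uterus. Of 162 values under other settings 152 kept their direction and their side of the threshold, and of 510 with 1 library or uterus left out 478 did. None of these 510, in which the fitted values carry no block and the within-uterus differences are paired by uterus, passed the threshold. With the replicate block in edgeR and in DESeq2, PTGS2 turned to -0.23 and -0.24 for AI vs Control, -0.14 and -0.16 for the averaged conceptus vs Control, and -0.18 and -0.17 for AI vs IVF. ESR1 turned to 0.25 and 0.23 for Male vs Female, and the length slope of PTGS2 turned to 0.02 in edgeR with the block. The block changed no other direction, and the only call it brought was ESR1 at -0.42 for the averaged conceptus vs IFNT in DESeq2. The cause was not tested.

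Without 1 library or uterus, PTGS2 ranged from -0.53 to 0.55 for AI vs Control, from -0.42 to 0.13 for IVF vs Control, from -0.31 to 0.28 for the averaged conceptus vs Control and from -0.46 to 0.77 for AI vs IVF. ESR1 ranged from -0.22 to 0.11 for AI vs IVF and from -0.19 to 0.23 for Male vs Female. The within-uterus difference of IVF vs Control ranged from -0.25 to 0.04 for ESR1 and from -0.44 to 0.01 for PTGS2. Those results changed sign in at least 1 such fit. The others kept their sign.

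Over all genes, the replicate block in edgeR and in DESeq2 called 875 and 1199 genes for IFNT vs Control (489 without the block), 1709 and 2286 for AI vs Control (480), 1134 and 1701 for IVF vs Control (513), 2068 and 2717 for the averaged conceptus vs Control (658), 1263 and 1956 for Male vs Control (514) and 1343 and 1982 for Female vs Control (545). Where edgeR without the block called 0, these fits called 1058 and 1710 for AI vs IFNT, 3 and 364 for IVF vs IFNT, 990 and 1656 for the averaged conceptus vs IFNT, 0 and 101 for AI vs IVF and 0 and 46 for Male vs Female. Read depth did not limit either gene, with 572 reads or more in every library.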
